A study of Rattus norvegicus with 50 samples.

Results

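Cd79b, Blnk, Pou2af1 and Jchain are genes of the B cell lineage, and this account follows their signals in rat liver after galactosamine, nevirapine or both. The genes were taken by symbol from the probe annotation of the array, counting only probe sets with 1 symbol. All 4 of 4 were found, among 14217 genes measured, with 5 probe sets in all. Each is represented by its probe set of highest mean over the 50 arrays, which is 1387749_at for Cd79b, 1393641_at for Blnk, 1393297_at for Pou2af1 and 1383163_at for Jchain. Jchain has another probe set, 1384208_at, which is described beside it.

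The livers came from 50 female Brown Norway rats (Bn/Crl, MHC haplotype RT1n, aged 9 to 11 weeks), 1 array per rat, in 17 groups of 3 rats, or 2 at 48 h of galactosamine. Galactosamine rats received 1 intraperitoneal dose of 750 mg/kg and were sampled 3 h, 24 h, 48 h or 8 d later. Combination rats took nevirapine by mouth for 7 d (150, then 100, then 75 mg/kg), received the same galactosamine dose and stayed on nevirapine until sampling at these times. Nevirapine rats had nevirapine alone and were sampled 3 h, 24 h and 48 h after dosing began or after 15 d. Their initial dose was 150 mg/kg, and the rats of 15 d went on to 100 and then 75 mg/kg. Vehicle rats were sham dosed and sampled at 3 h, 24 h, 48 h, 8 d and 15 d. Combination rats at 8 d had been dosed for 15 d in all and were set against vehicle at 15 d. The last oral dose preceded sampling by 2 h, except in the groups of 3 h, where it preceded it by 5 h in galactosamine, combination and vehicle rats and by 3 h in nevirapine rats. The series asks what happens over the 8 d in which the combination, but neither drug alone, produced fibrosis.

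B cells recognise antigen through a receptor whose signal is passed on by Cd79a and Cd79b, and Blnk is the adaptor that joins the activated receptor to Btk and Plcg2. Pou2af1 is a coactivator that works with the octamer-binding proteins Pou2f1 and Pou2f2 at immunoglobulin promoters. Once a B cell has become a plasma cell it makes Jchain, the short protein that links IgA and IgM into polymers. In rat liver, hepatocytes carry polymeric IgA into bile with the receptor Pigr, which binds it through Jchain.

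The octamer ATGCAAAT, in either orientation, is the element through which Pou2af1 acts, so the bases before the start sites of the other members are shown. RefSeq sequences of the rat build GRCr8 were matched by symbol for 2 of the 4 members, Blnk and Jchain. Each run covers the 250 bases before the start site, 5′ to 3′ on the gene's strand, with the match in capitals. For Blnk this is chr1:249770534-249770783 on the minus strand, and for Jchain chr14:19822726-19822975 on the plus strand.
Blnk: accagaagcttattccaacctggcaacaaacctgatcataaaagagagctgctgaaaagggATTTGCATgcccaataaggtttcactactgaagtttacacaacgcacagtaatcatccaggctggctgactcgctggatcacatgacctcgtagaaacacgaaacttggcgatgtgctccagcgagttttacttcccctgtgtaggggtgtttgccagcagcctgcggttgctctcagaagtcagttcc
Jchain: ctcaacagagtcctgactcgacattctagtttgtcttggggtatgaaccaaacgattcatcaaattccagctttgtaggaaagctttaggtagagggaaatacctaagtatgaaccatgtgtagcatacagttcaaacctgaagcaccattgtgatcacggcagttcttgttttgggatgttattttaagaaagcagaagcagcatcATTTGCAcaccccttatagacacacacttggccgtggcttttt
The Blnk run holds the octamer in its reverse orientation, ATTTGCAT, with its first base at position -189 from the start site. The Jchain run holds no full octamer but has ATTTGCA, the reverse complement of TGCAAAT, with its first base at position -43. TGCAAAT is the octamer without its first base, so every octamer also counts as a match to it, and it was chosen after the sequence was seen. Of 33469 rat promoters of this length, 1.56% hold the octamer and 3.54% hold TGCAAAT. A match describes these letters, not a bound site.

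Signals are log2 values. Control probe sets for bacterial genes, which rat RNA does not contain, set the background level, and a mean below it may be background alone. The highest mean of 27 such probe sets was 4.37. Jchain lay above it in 17 of 17 group means, and Cd79b lay below it in 8 of 17. Blnk and Pou2af1 lay below it in 17 of 17 group means, with 1 and 0 of the 50 arrays above it. Where 1 group of a comparison was below the level, the change is given as at least the brighter mean over the level, and where both were, no size is given. In whole liver, fewer cells of a type and less RNA per cell cannot be told apart. Limma compared the groups, each comparison was adjusted over all 14217 genes (Benjamini-Hochberg), and adjusted p under 0.05 made a call. Errors of differences are standard errors of the fit.

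Some defining B cell and plasma cell genes were not found among the probe sets with 1 symbol. Cd79a, Pax5 and the immunoglobulin genes looked for had no probe set with 1 symbol and were not analysed here. Ms4a1, which encodes CD20, had group means of log2 3.62 to 4.64, mostly below the level. Array medians lay between 4.95 and 5.09, and the lowest correlation of an array with its own group was 0.979.

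The plasma cell gene Jchain rose in galactosamine rats at 3 h, and it was not called in rats that had nevirapine before the same dose. Its signal was 7.52, 7.20 and 8.33 in galactosamine rats at 3 h, against 5.50, 5.98 and 6.10 in vehicle rats at 3 h. The lowest galactosamine rat was above the highest vehicle rat, and above the highest of all other rats of the study. The difference was 1.82 ± 0.29, or 3.54-fold (adjusted p = 3.69e-06). It was the only member called there, 1 of 4, and 32.9% of all genes were called in that comparison. Without each of the 6 rats in turn the difference lay between 1.50 and 2.07.

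Combination rats at 3 h had Jchain signals of 6.10, 6.04 and 6.59. They overlapped vehicle rats and lay wholly below galactosamine rats. Against vehicle the difference was 0.38 ± 0.29 (adjusted p = 0.325, 95% interval -0.20 to 0.97). Set directly against galactosamine at 3 h, Jchain was lower in combination rats by 1.44 ± 0.29 on the log2 scale, which is 2.71-fold (adjusted p = 0.000443). In that comparison 2 of 4 members were called, against 17.7% of all genes.

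The dimmer probe set of Jchain gave the same call only between the combination and galactosamine. At 3 h it read 4.56, 4.51 and 4.39 in combination rats, 4.90, 4.84 and 5.39 in galactosamine rats and 4.91, 4.85 and 4.63 in vehicle rats. The galactosamine and vehicle rats overlapped, and the combination rats were the lowest. Galactosamine minus vehicle was 0.25 ± 0.12 (adjusted p = 0.115, over 20826 probe sets), so the rise was not called with this probe set. Combination minus galactosamine was -0.56 ± 0.12 (adjusted p = 0.00104), the same direction as with the brighter probe set. Combination minus vehicle was -0.31 ± 0.12 (adjusted p = 0.0467), opposite in sign to the 0.38 of the brighter probe set. Over the 17 group means the 2 probe sets correlated with Pearson's r = 0.476, and over the 50 arrays with group means subtracted with r = 0.204. These points share arrays, and the reason for the difference was not tested.

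**Figure D1:**
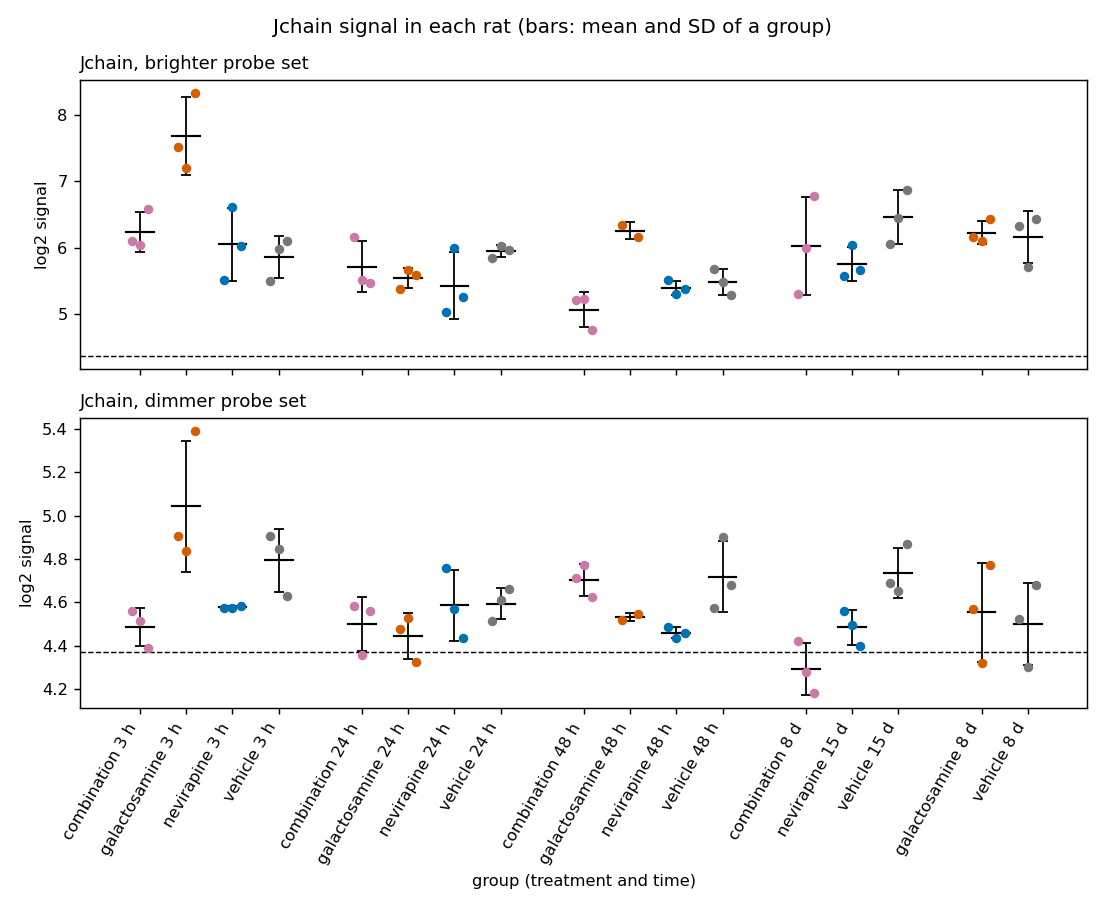
Log2 signal of the 2 Jchain probe sets in each rat, with the mean and SD of each group, groups set out by time of sampling, with treated groups left of their vehicle group. The dashed line is the background level of 4.37. In the upper panel the 3 galactosamine rats at 3 h, 7.20 to 8.33, stand above all other rats, and in the lower panel they overlap vehicle.

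Later, Jchain differed less. At 24 h it was 6.16, 5.52 and 5.47 in combination rats, 5.37, 5.66 and 5.59 in galactosamine rats and 5.85, 6.02 and 5.96 in vehicle rats. All galactosamine rats lay below vehicle, while combination rats overlapped it, and neither difference was called (combination -0.23 ± 0.29, adjusted p = 0.590, and galactosamine -0.40 ± 0.29, adjusted p = 0.233).

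At 48 h Jchain was 5.22, 5.22 and 4.77 in combination rats, 6.34 and 6.17 in galactosamine rats and 5.68, 5.49 and 5.28 in vehicle rats. The 3 groups did not overlap, with galactosamine highest and the combination lowest. Galactosamine minus vehicle was 0.77 ± 0.32 (adjusted p = 0.0547), just outside the call, and combination minus vehicle was -0.42 ± 0.29 (adjusted p = 0.382). The direct difference, combination minus galactosamine, was -1.19 ± 0.32, or 2.28-fold lower (adjusted p = 0.00489). Of the 4 members 1 was called there, against 29.3% of all genes. Without rat26, 1 of the 2 galactosamine rats, the difference was -1.10 with adjusted p = 0.0598. With the dimmer probe set it was 0.17 ± 0.13, of the opposite sign and not called (adjusted p = 0.360).

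At 8 d the Jchain signal was 6.16, 6.10 and 6.43 in galactosamine rats and 6.33, 5.72 and 6.43 in vehicle rats, which overlapped (difference 0.07 ± 0.29). Combination rats at 8 d read 5.31, 5.99 and 6.77, against 6.05, 6.44 and 6.87 in vehicle rats at 15 d. These rats spread more than any other group, with an SD of 0.73, and the difference of -0.43 ± 0.29 was not called (adjusted p = 0.288). With the dimmer probe set the same comparison gave -0.44 ± 0.12 (adjusted p = 0.00561), but its combination mean, 4.29, was below the background level.

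Nevirapine alone gave no call for Jchain. At 3 h it was 5.52, 6.61 and 6.03 in nevirapine rats, which overlapped vehicle (difference 0.20 ± 0.29). At 24 h it was 5.04, 5.99 and 5.26 and at 48 h 5.51, 5.31 and 5.37, with differences of -0.51 ± 0.29 and -0.09 ± 0.29. After 15 d it was 5.57, 6.04 and 5.66, all below the vehicle rats of that time, yet the difference of -0.70 ± 0.29 was not called (adjusted p = 0.104).

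In order, Jchain was highest in galactosamine rats at 3 h (mean 7.68 ± 0.58, SD, n = 3) and then in vehicle rats at 15 d (6.46 ± 0.41). It was lowest in combination rats at 48 h (5.07 ± 0.26), below nevirapine rats at 48 h (5.40 ± 0.11). At these 2 steps neighbouring groups did not overlap, and at the other 14 steps of the order they did. Among the 15 vehicle rats Jchain ran over 5.28, 5.98 and 6.87 (lowest, median and highest), and a difference among the 5 vehicle groups was not called (F test, adjusted p = 0.0744). The same F test called 0 of the 4 members, against 29.6% of all genes. At an unadjusted p under 0.05 it had 1, Jchain, and the share of all genes at that threshold was not counted.

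**Figure D2:**
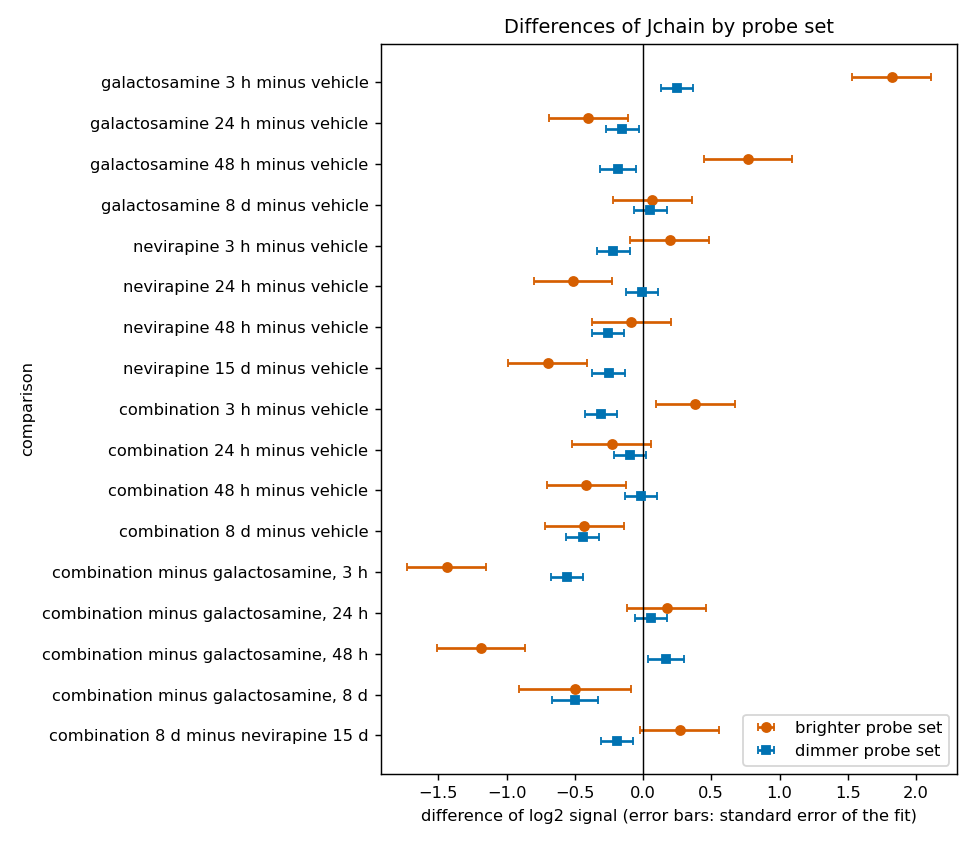
Differences of Jchain log2 signal in the 17 comparisons, with standard errors of the fit, for the brighter probe set (circles) and the dimmer one (squares), a positive value meaning higher in the group named first. At 8 d, combination minus galactosamine is the difference of their differences from vehicle. The brighter probe set stands at 1.82 for galactosamine at 3 h, where the dimmer one stands at 0.25, and the 2 lie on opposite sides of 0 in 5 comparisons: galactosamine at 48 h, nevirapine and the combination at 3 h, combination minus galactosamine at 48 h and the combination at 8 d minus nevirapine at 15 d.

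Markers of other leukocytes moved at the same times. Of 5 genes common to all leukocytes, 5 rose in combination rats at 3 h and 5 in galactosamine rats at 3 h. Their summed linear signal was 1325 to 1621 in combination rats, 999 to 1030 in galactosamine rats and 364 to 545 in vehicle rats at 3 h. This sum was highest in combination rats. Of 9 macrophage and Kupffer cell genes 9 rose in each of the 2 treatments. Of 10 T cell genes 5 rose with the combination and 0 with galactosamine, and of 5 NK cell genes 4 and 3. Of 4 plasmacytoid dendritic cell genes 2 rose in each, and of 3 neutrophil genes 2 rose with the combination and 0 with galactosamine. Of 10 plasma cell genes 1 rose and 3 fell with the combination, and 1 rose and 2 fell with galactosamine. Of all genes 15.2% rose with the combination and 14.9% with galactosamine, and 17.4% and 18% fell. The part of these cells in the Jchain signal was not tested. The GAPDH signal at the 3′ end less that at the 5′ end, which grows as RNA degrades, was 0.189 to 0.260 in combination rats, 0.127 to 0.200 in galactosamine rats and 0.192 to 0.543 in vehicle rats at 3 h, and with it in the fit the galactosamine difference of Jchain was 1.72 (adjusted p = 2.45e-05).

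The receptor chain Cd79b fell in 3 comparisons, in each of them to signals below the background level. At 24 h it was 3.84, 4.12 and 3.61 in galactosamine rats and 4.60, 4.36 and 4.26 in vehicle rats. The groups did not overlap (adjusted p = 0.00316), and since the vehicle mean of 4.41 was itself close to the level, the fall can be given only as at least 1.03-fold. Combination rats at 24 h, at 4.12, 4.28 and 4.33, overlapped vehicle (adjusted p = 0.459), and against galactosamine they were not called either (adjusted p = 0.0533).

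In combination rats at 8 d Cd79b was 3.89, 4.01 and 3.97, against 4.52, 4.74 and 4.78 in vehicle rats at 15 d. Every combination rat was below every vehicle rat, and Cd79b was at least 1.24-fold lower (adjusted p = 0.000844). With the vehicle rats of 8 d as the control, at 4.61, 4.20 and 4.57, adjusted p was 0.0306. Nevirapine rats at 15 d read 4.17, 4.27 and 4.01, also without overlap and at least 1.24-fold lower (adjusted p = 0.0206). That call was lost without rat14 or rat15 of the vehicle group (adjusted p = 0.0745 and 0.0885) and without rat45 of the nevirapine group (adjusted p = 0.105). The combination and nevirapine rats were set against the same 3 vehicle rats, which had the highest Cd79b mean of the 17 groups (4.68 ± 0.14, SD, n = 3). Compared with each other, they overlapped (adjusted p = 0.482, both below the level). Galactosamine rats at 8 d, at 4.35, 4.17 and 4.34, overlapped their vehicle rats (adjusted p = 0.997), and the difference between the combination and galactosamine effects at 8 d was not called (adjusted p = 0.104).

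At the remaining times Cd79b was not called in any treatment. At 3 h it was 4.34, 4.39 and 4.39 in combination rats, 4.29, 4.30 and 4.66 in galactosamine rats, 4.60, 4.13 and 4.35 in nevirapine rats and 4.49, 4.56 and 4.47 in vehicle rats. At 48 h it was 3.96, 4.90 and 4.66 in combination rats, 4.44 and 4.29 in galactosamine rats, 4.17, 4.39 and 4.31 in nevirapine rats and 4.51, 4.40 and 4.52 in vehicle rats. At 24 h of nevirapine it was 4.05, 4.64 and 4.51. All combination rats at 3 h and all nevirapine rats at 48 h were below their vehicle rats, and other groups overlapped. From one group to the next in the order of its means, Cd79b overlapped at all 16 steps, and its lowest mean was in galactosamine rats at 24 h (3.86 ± 0.25). The 15 vehicle rats spanned 4.20 to 4.78 with a median of 4.52 (F test, adjusted p = 0.611).

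Within groups, the gene whose signal followed Cd79b most closely was Cxcr5, the chemokine receptor that guides B cells into follicles. After subtraction of group means, the 2 genes correlated over 50 arrays with r = 0.717 (Spearman's rho = 0.727), the highest of 11894 genes ranked. Without the 2 rats farthest from the median of Cd79b, r was 0.691. The next genes were Syt15 (0.663), Ctsh (0.652), C1qtnf5 (0.642) and Slc9b2 (0.631). These are descriptions over arrays that share a scale but differed in RNA quality. The GAPDH signal at the 3′ end less that at the 5′ end ran from 0.0089 in rat102 to 0.860 in rat40. Its part in these correlations was not tested. Over the 17 group means Cxcr5 had r = 0.700 and stood at rank 240, behind Cln3 (0.864), Mroh7, Lrp5, Ndufb7 and Apoc4 (0.858). Cxcr5, as Cd79b, fell in galactosamine rats at 24 h (-0.38 ± 0.11, adjusted p = 0.00404) and in combination rats at 8 d (-0.38 ± 0.11, adjusted p = 0.0132). Cxcr5 also fell in nevirapine rats at 48 h (-0.45 ± 0.11, adjusted p = 0.00578), where Cd79b was not called (adjusted p = 0.436). It was called between the combination and galactosamine at 24 h (0.35 ± 0.11, adjusted p = 0.0129) and 8 d (-0.60 ± 0.16, adjusted p = 0.0136), where Cd79b was not. It was not called in nevirapine rats at 15 d (mean 7.48, against 7.55 in vehicle rats), where Cd79b was.

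**Figure D3:**
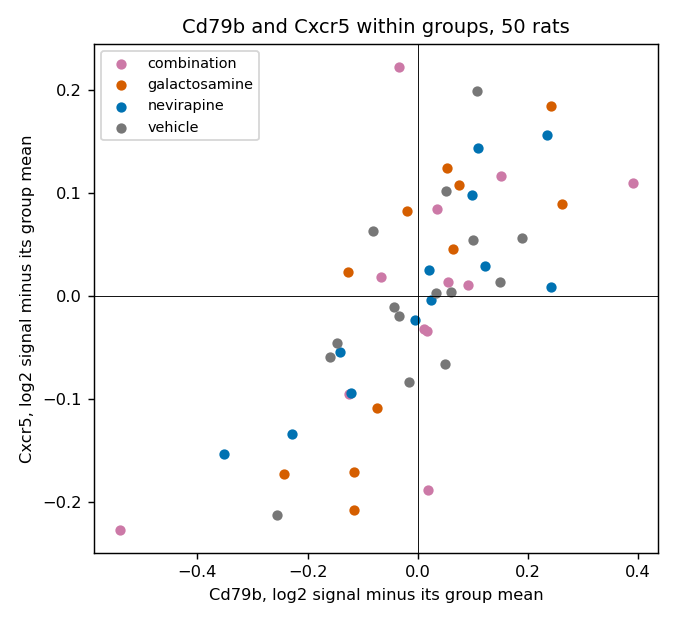
Deviation of each of 50 rats from its group mean, in log2 signal, for Cd79b (x axis) and Cxcr5 (y axis), coloured by treatment. Rats above their group in one gene tended to be above it in the other, with r = 0.717.

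The adaptor Blnk was called higher in 5 comparisons, each time between group means below the background level, so no size is given. Its highest group mean was that of combination rats at 8 d, with signals of 4.60, 3.42 and 4.25, against 3.31, 3.29 and 3.09 in vehicle rats at 15 d. All 3 combination rats lay above the vehicle rats, and 1 of them was the single array of the study above the level for Blnk (adjusted p = 0.000582). The lowest of them, at 3.42, was below every galactosamine rat at 24 h and 48 h. It also lay within the range of vehicle rats at 8 d and of galactosamine rats at 8 d. Over the alternatives, with vehicle rats at 8 d as the control among them, adjusted p was at most 0.0389. Against nevirapine rats at 15 d, at 3.33, 2.85 and 3.10, the combination was again higher without overlap (adjusted p = 0.000206). Galactosamine rats at 8 d, at 3.19, 3.63 and 3.55, overlapped their vehicle rats at 3.63, 3.53 and 3.39 (adjusted p = 0.998). The combination effect at 8 d exceeded the galactosamine effect (adjusted p = 0.0170). This difference was no longer called without rat73 or rat87 of the combination (adjusted p = 0.0732 and 0.0544) or without rat102 of galactosamine (adjusted p = 0.0570), nor with only the compared groups in the fit (adjusted p = 0.0568).

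Blnk was also called higher in galactosamine rats at 24 h, with 3.51, 3.63 and 3.72 against 3.23, 3.06 and 3.03 in vehicle rats (adjusted p = 0.0156), and at 48 h, with 3.84 and 3.93 against 3.16, 3.32 and 3.23 (adjusted p = 0.0103). Neither pair overlapped. The first call was lost without rat24 (adjusted p = 0.0578) and the second without rat27 (adjusted p = 0.0828). Combination rats read 3.51, 3.86 and 3.82 at 3 h, 3.64, 3.34 and 3.56 at 24 h and 3.29, 3.64 and 3.97 at 48 h, and none of these was called against vehicle (adjusted p = 0.0639, 0.0817 and 0.142). Galactosamine rats at 3 h spanned 3.28 to 3.41, within vehicle at 2.96 to 3.69. Nevirapine rats spanned 3.16 to 3.39 at 3 h, 3.30 to 3.38 at 24 h and 3.05 to 3.28 at 48 h, with no call.

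The genes most like Blnk over the 17 group means were Lilrb4, an inhibitory receptor of myeloid cells (r = 0.907), Rab31, Sh3kbp1, Otulinl and Cd300c2 (0.882). Over arrays with group means subtracted they were Apol3-ps1 (0.654), Pla2g2d, Irag1, Sp140 and Kcnk13 (0.571). Genes of all leukocytes and of macrophages moved with Blnk in part. In combination rats at 8 d, 3 of 5 leukocyte genes and 2 of 9 macrophage genes rose, against 13.1% of all genes. The summed signal of the leukocyte genes was 932 to 1213, against 645 to 709 in vehicle rats at 15 d. Against nevirapine at 15 d, 5 of 5 leukocyte genes and 7 of 9 macrophage genes were higher in the combination at 8 d (9.31% of all genes were). At the 2 times of galactosamine when Blnk was called, 5 of 5 leukocyte genes rose at 24 h and 5 of 5 at 48 h. Macrophage genes rose in 2 of 9 cases at 24 h and 9 of 9 at 48 h, against 30.2% and 24.9% of all genes. Both lists also rose where Blnk was not called. In galactosamine rats at 3 h 5 of 5 and 9 of 9 rose (14.9% of all genes), and Blnk had adjusted p = 0.882. In combination rats 9 of 9 macrophage genes and 5, 4 and 4 of 5 leukocyte genes rose at 3 h, 24 h and 48 h (15.2%, 20.7% and 10.2%). In nevirapine rats at 3 h 3 of 5 and 6 of 9 rose (7.59%). The part of leukocytes and macrophages in the Blnk signal was not tested.

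The coactivator Pou2af1 had its highest group means in combination rats at 3 h (3.05) and 24 h (2.96), below the background level as were all its signals. Galactosamine rats at 8 d (2.87) came next, then combination rats at 48 h (2.86) and 8 d (2.85) and vehicle rats at 8 d (2.84). At 3 h it was 2.76, 3.07 and 3.33 in combination rats, 2.51, 2.58 and 2.51 in galactosamine rats and 2.59, 2.65 and 2.50 in vehicle rats. The combination rats lay above both other groups, and both differences were called (adjusted p = 0.00647 against galactosamine and 0.00741 against vehicle). Without rat63, an array that correlated least with its group, both calls were lost (adjusted p = 0.0868 and 0.0750). At 24 h it was 3.14, 2.95 and 2.79 in combination rats, 2.25, 2.64 and 2.60 in galactosamine rats and 2.81, 2.52 and 2.39 in vehicle rats. The combination was above galactosamine without overlap (adjusted p = 0.00601) and above vehicle with overlap (adjusted p = 0.0225). The call against galactosamine was lost without rat22 or rat67 (adjusted p = 0.0687 and 0.0533). The call against vehicle was lost without rat5, rat6 or rat67 (adjusted p = 0.0710, 0.131 and 0.135).

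At 48 h Pou2af1 was 2.76, 2.93 and 2.90 in combination rats and 2.57, 2.48 and 2.40 in vehicle rats, which did not overlap (adjusted p = 0.0495). Leaving out any 1 of these 6 rats ended this call, with adjusted p between 0.0624 and 0.162. At 8 d combination rats spanned 2.72 to 2.98, above 2.44 to 2.65 in vehicle rats at 15 d, with no call (adjusted p = 0.0818). Vehicle rats at 8 d, at 2.86, 3.02 and 2.62, overlapped the combination rats, as did galactosamine rats at 8 d, at 2.61, 3.10 and 2.88. Galactosamine alone gave no call at any time, nor did nevirapine alone. Its likest genes over group means were Hnrnpa3 (r = 0.781), Folr2, Cd3e, Epb41l3 and Esco2 (0.752), of which Cd3e is a chain of the T cell receptor complex. Over arrays with group means subtracted they were Marchf1 (0.612), Suz12, Rabep1, C11h3orf70 and Arid1b (0.514).

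**Figure D4:**
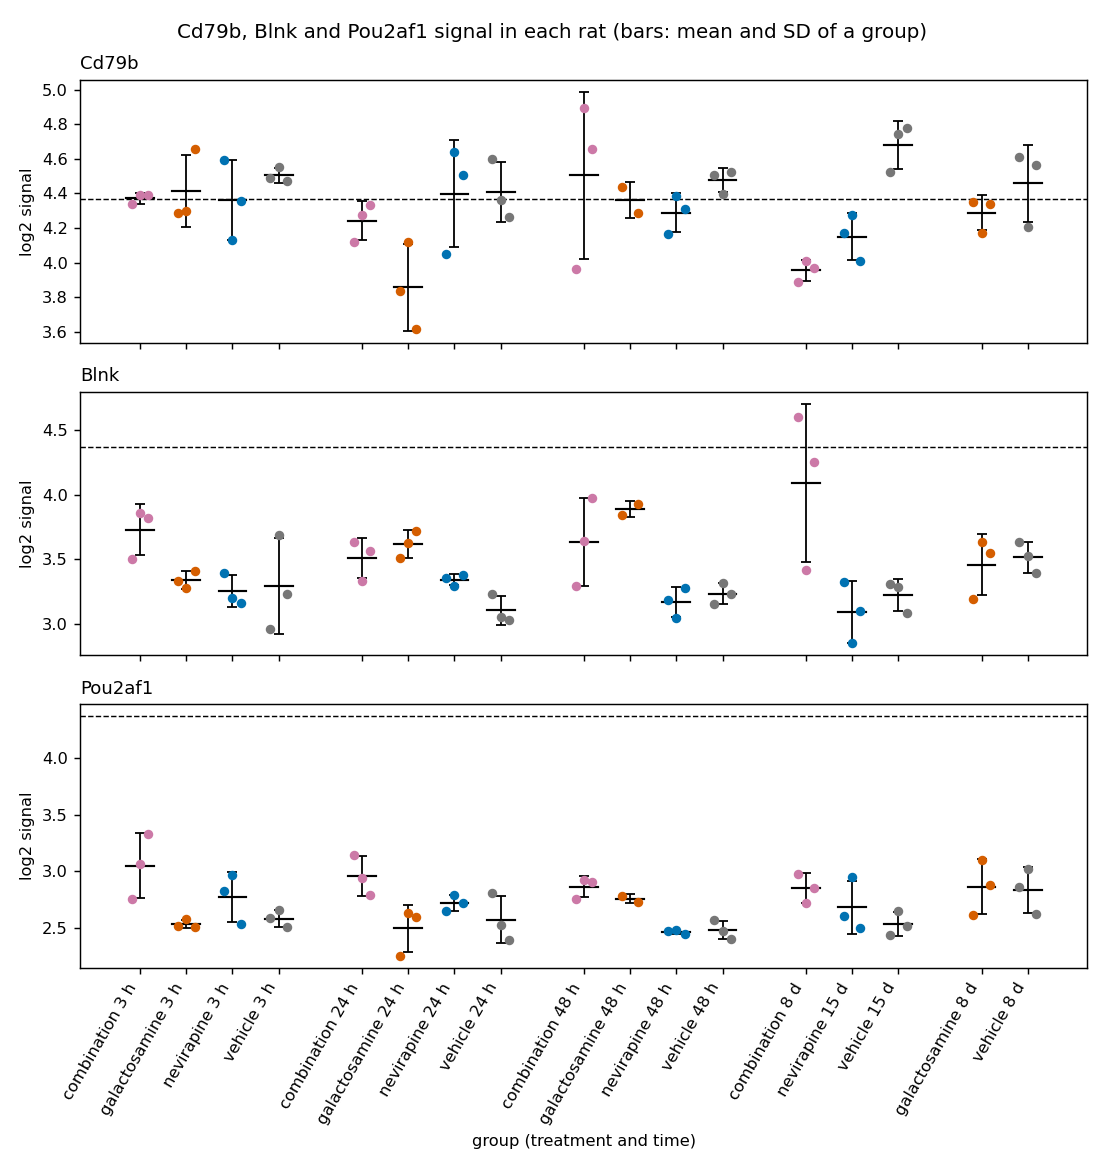
Log2 signal of Cd79b, Blnk and Pou2af1 in each rat, with the mean and SD of each group, in the same order of groups as for Jchain and with the background level of 4.37 dashed. Cd79b straddles the level and is lowest at 24 h of galactosamine (3.86) and 8 d of the combination (3.95), while all Pou2af1 signals and 49 Blnk signals lie under it.

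The 4 members did not move as a group. In each comparison with a call, 1 or 2 of 4 were called, and none of the 17 comparisons had 2 calls in the same direction. With galactosamine 1 of 4 was called at 3 h, 2 at 24 h (Blnk up and Cd79b down), 1 at 48 h and 0 at 8 d. All genes were called in 32.9%, 58.8%, 39.4% and 0.0352% of cases. With the combination 1 of 4 was called at 3 h, at 24 h and at 48 h and 2 at 8 d (Blnk up and Cd79b down), against 32.5%, 36.7%, 15.9% and 24.8% of all genes. With nevirapine 0 of 4 were called at 3 h, 24 h and 48 h and 1 after 15 d, against 15.1%, 11.2%, 17.4% and 13.9%. At an unadjusted p under 0.05, too, limma had 0 of 4 in nevirapine rats at 3 h, 24 h and 48 h and in galactosamine rats at 8 d. It had 2 in nevirapine rats after 15 d (Cd79b and Jchain, both lower). In galactosamine rats it had 1 at 3 h, 2 at 24 h and 2 at 48 h (Blnk and Jchain, both higher). Combination rats had 2 at 3 h, 24 h and 48 h and 3 at 8 d, with Blnk and Pou2af1 higher each time. Combination against galactosamine had 3, 2, 1 and 2 at 3 h, 24 h, 48 h and 8 d. The share of all genes at that unadjusted threshold was not counted. By adjusted p, combination against galactosamine gave 1 of 4 at 24 h, against 37.8%, and 1 of 4 at 8 d, against 11.2%. The combination at 8 d against nevirapine at 15 d gave 1 of 4, against 12.4%. With so few genes, such counts are not far from the shares of all genes and set nothing apart about the members.

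Across the 17 group means the 2 members most alike were Blnk and Pou2af1 (r = 0.569, and 0.384 over arrays with group means subtracted). Cd79b and Blnk had r = -0.408 over group means and 0.103 within groups. Blnk and Pou2af1 lay below the background level in 17 of 17 group means and Cd79b in 8. These r values thus describe signals not shown to exceed background. Jchain had r between -0.03 and 0.18 with the others over group means. The genes most like Jchain over group means were Pfdn5, a subunit of the chaperone prefoldin (0.854), Ap4s1, Tfpi2, Gpr182 and Arhgap23 (0.838). Over arrays with group means subtracted they were Smpd3 (0.581), Alcam, Ehbp1, Inhba and Kdm4d (0.529). No plasma cell gene of the list below was among them.

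Other B cell genes gave a similar mixed picture, with most calls after 48 h of nevirapine. Of a list of 19 B cell genes 13 were measured, 7 of them with a mean above the background level. In nevirapine rats at 48 h 6 of 13 fell and 0 rose, with a median of -0.39 on the log2 scale against -0.0047 over all genes, of which 6.44% fell. Other lists had medians below 0 there too, -0.41 for 5 genes of all leukocytes (2 fell, 1 rose), -0.28 for 5 NK cell genes (1 fell) and -0.24 for 13 B cell receptor signalling genes (3 fell), and their part in the B cell list was not tested. The B cell genes that fell included Fcrla (-0.64 ± 0.20), the inhibitory receptor Cd22 (-0.63 ± 0.11) and Pou2f2, the octamer-binding partner of Pou2af1 (-0.52 ± 0.12). Cd79b, Blnk, Pou2af1 and Jchain had no call there. Elsewhere at most 3 of 13 were called in a direction. Blk, a kinase of the B cell receptor, rose in galactosamine rats at 3 h (0.35 ± 0.14) and 48 h (0.67 ± 0.15) and in combination rats at 3 h (0.60 ± 0.14). Of the 13 genes 1, 3 and 3 rose in these groups, against 14.9%, 24.9% and 15.2% of all genes. Blk fell in nevirapine rats at 24 h (-0.41 ± 0.14) and 48 h (-0.39 ± 0.14).

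Of 20 plasma cell and immunoglobulin genes 10 were measured. In galactosamine rats at 3 h, when Jchain rose, Xbp1, the transcription factor that builds the secretory apparatus of plasma cells and also acts in hepatocytes, fell by 1.57 ± 0.24 on the log2 scale. Tent5c fell by 1.01 ± 0.27, and the protein disulphide isomerase Txndc5 rose by 0.48 ± 0.14. The median was -0.10, against -0.00027 over all genes. Mzb1, a chaperone of B and plasma cells, rose at least 1.19-fold in combination rats at 24 h. Pim2 (-0.79 ± 0.18) and Sdc1 (-0.58 ± 0.15) fell in combination rats at 8 d. Pigr, the receptor to which Jchain binds, was not called in any of the 17 comparisons, with group means between 12.60 and 13.07.

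Of 14 B cell receptor signalling genes 13 were measured, and most are shared with other leukocytes. At 48 h of galactosamine 6 of 13 rose and 0 fell (24.9% of all genes rose), with a median of 0.33. Vav1 rose by 0.95 ± 0.15, and the tyrosine kinase Btk, which Blnk brings to the receptor, rose at least 1.19-fold. At 3 h of the combination 4 of 13 rose (15.2% of all genes rose), among them Vav1 (0.98 ± 0.13) and Lyn (0.41 ± 0.14). Against nevirapine at 15 d, 4 of 13 were higher in the combination at 8 d and 0 lower (9.31% of all genes were higher and 3.09% lower), with a median of 0.33 against 0.0216 over all genes. Vav1 (0.72 ± 0.13) and Inpp5d (0.60 ± 0.16) were among them.

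Of 15 genes of B cell survival and homing 11 were measured. In combination rats at 8 d 2 of 11 rose and 0 fell, against 13.1% of all genes that rose. The median was 0.09, against -0.02 over all genes. Cxcr4, the receptor that holds plasma cells at sources of Cxcl12, rose by 1.39 ± 0.19 in combination rats at 8 d. Tnfsf13, the plasma cell survival factor APRIL, rose by 0.92 ± 0.19 there. Both effects exceeded those of galactosamine at 8 d (Cxcr4 by 0.91 ± 0.27 and Tnfsf13 by 0.92 ± 0.26, adjusted p = 0.0239 and 0.0197). Cxcr4 also rose in combination rats at 3 h (0.76 ± 0.19) and galactosamine rats at 48 h (1.13 ± 0.21). At 48 h it was lower in the combination than with galactosamine (-1.05 ± 0.21). Tnfsf13 also rose in galactosamine rats at 3 h (0.58 ± 0.19) and 48 h (0.73 ± 0.21) and in combination rats at 3 h (1.03 ± 0.19). Cxcl12 itself was lower by 2.78 ± 0.21 in galactosamine rats at 24 h, or 6.85-fold, and by 1.30 ± 0.21 in combination rats. Jchain was not called at either time. Cd40, the B cell receptor for T cell help that other cells also carry, rose in galactosamine rats at 3 h (0.73 ± 0.14) and combination rats at 3 h (0.66 ± 0.14).

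**Figure D5:**
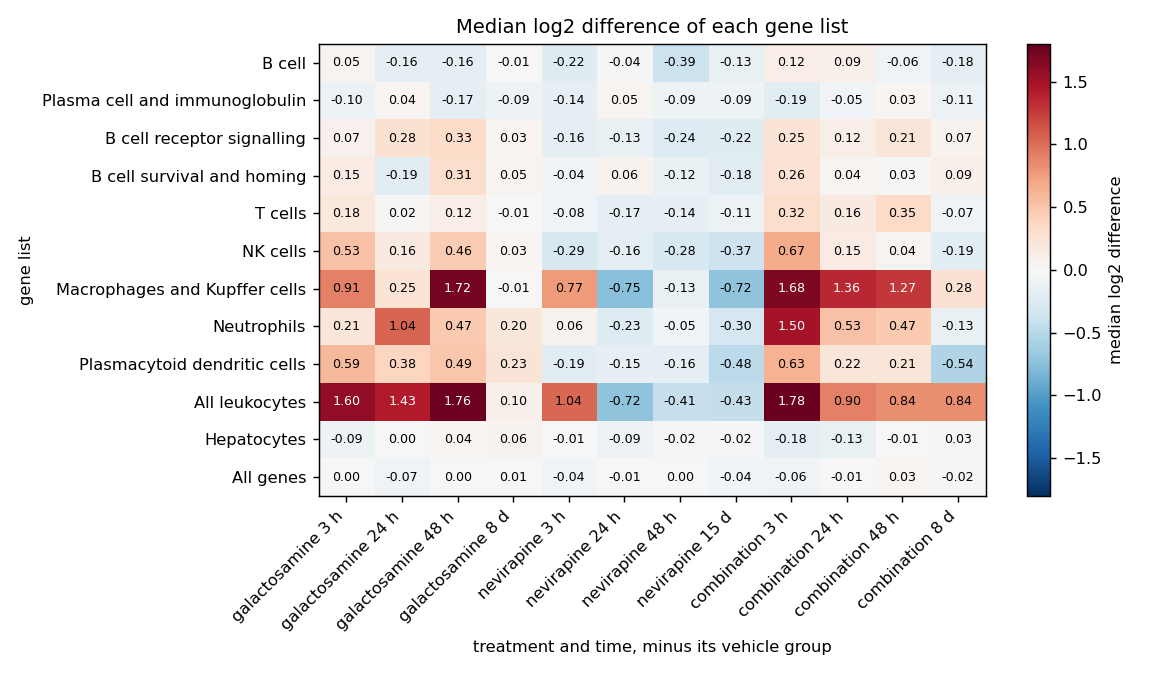
Median log2 difference from vehicle of each gene list in the 12 treated groups, with all 14217 genes in the last row; combination 8 d is set against vehicle 15 d. The B cell row is lowest at 48 h of nevirapine (-0.39), the leukocyte row is highest at 3 h of the combination (1.78) and the macrophage row at 48 h of galactosamine (1.72).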

How the data were processed

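Liver RNA of 50 rats was measured on Affymetrix rat arrays. The authors deposited log2 probe set signals, and RMA and limma, without versions, are named per the submitters' processing notes. The values were used as deposited, without further scaling or filter. Groups came from the sample labels, and rats were unpaired. Of 31099 probe sets, 20826 had 1 symbol. The brightest probe set of each gene gave 14217 genes. Limma 3.58.1 in R 4.3.3 fitted 17 group means to all 50 arrays, with eBayes and Benjamini-Hochberg adjustment over all genes. The members, the gene lists and the tests were chosen with earlier results of these data known.

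The rule for named genes took the members, for each the 5 genes with the highest correlation over group means and the 5 highest over arrays with group means subtracted (range of group means of at least 0.5, symbols starting with LOC or RGD left out), and up to 4 called genes of a list with the largest change. Genes on these lists that did not pass it, Ms4a1 and Pigr, were named after their values were seen. The fit was tested on simulated data. Alternatives were another fit, prior, probe set, filter, scaling, weighting, control, GAPDH covariate, 3 arrays left out, and each rat left out. No date is among the labels used, so no batch was looked for. The number of arrays limits the precision. Plots used matplotlib 3.10.9.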

Additional observations from a re-analysis of the deposited data

Results flagged for a closer look

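In 5 cases a test of the difference itself set the combination apart from galactosamine. The members called were 2 of 4 at 3 h and 1 of 4 at 24 h, 48 h and 8 d. Of all genes, 17.7%, 37.8%, 29.3% and 11.2% were called at these times. Jchain was lower in combination rats than in galactosamine rats at 3 h by 1.44 on the log2 scale (limma difference -1.44 ± 0.29, adjusted p = 0.000443), with all 3 combination rats below all 3 galactosamine rats. At 48 h its difference was -1.19 ± 0.32 (adjusted p = 0.00489), with 3 of 3 combination rats below both galactosamine rats. With the dimmer probe set the limma difference at 48 h was 0.17 ± 0.13 (adjusted p = 0.360). Leaving out 1 rat gave an adjusted p of up to 0.0598 with the brighter one. Pou2af1 was higher in 3 of 3 combination rats at 3 h (adjusted p = 0.00647) and at 24 h (adjusted p = 0.00601). Blnk differed between the 2 effects at 8 d (adjusted p = 0.0170). The Pou2af1 and Blnk calls were each lost in some alternatives and without some single rats. Pou2af1 and Blnk lay below the background level, so these are given without a size. Groups of 2 or 3 rats were too small to look for single rats that stand apart.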

How the results depend on the processing

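Of the members' called differences, those of Cd79b in combination rats at 8 d and galactosamine rats at 24 h, Blnk in combination rats at 8 d (against vehicle and nevirapine) and Jchain in combination against galactosamine at 3 h kept their call in every alternative that could be run and without each rat. Jchain in galactosamine rats at 3 h lost it only with the dimmer probe set (0.25, adjusted p = 0.115). Its other alternatives had an adjusted p of at most 0.000593, and leaving out 1 rat gave at most 0.000217. Jchain in galactosamine rats at 48 h became called in 4 of 10 alternatives (adjusted p from 0.00335 to 0.0468), in nevirapine rats at 15 d in 2 (0.0248 with only the compared groups and 0.00916 with array weights), in galactosamine rats at 24 h in 1 (0.0271, only the compared groups) and in combination rats at 48 h in 1 (-0.91, 0.00688, all vehicle rats as control). With the dimmer probe set it became called in combination rats at 8 d (0.00561) and in combination against galactosamine at 8 d (0.0497). That probe set also gave a call in combination rats at 3 h (-0.31, 0.0467), opposite in sign to the main result. Leaving out the dimmest 40% of genes removes Cd79b, Blnk and Pou2af1 by its construction.

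Jchain changed sign with the dimmer probe set in nevirapine rats at 3 h (-0.22, and -0.011 with the mean of both probe sets), galactosamine rats at 48 h (-0.19), combination rats at 3 h (-0.31), combination against galactosamine at 48 h (0.17) and the combination at 8 d against nevirapine at 15 d (-0.19). With all 15 vehicle rats as control it did so in combination rats at 8 d (0.045). With 1 rat left out it ran from -0.15 to 0.21 in galactosamine rats at 8 d, -0.19 to 0.013 in nevirapine rats at 48 h, -0.084 to 0.46 in nevirapine rats at 3 h, -0.11 to 0.63 for the combination at 8 d against nevirapine at 15 d and -0.048 to 0.29 for combination against galactosamine at 24 h. The cause was not tested.

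The number of members called moved as follows. For galactosamine at 48 h it became 2 with only the compared groups in the fit, with array weights and without rat63, rat70 and rat31. For nevirapine after 15 d it became 2 in the first 2 of these. For the combination at 3 h it became 0 in all 3 and 2 with cyclic loess, all vehicle rats or the GAPDH covariate. For the combination at 24 h it became 0 with array weights and 2 with the covariate, and at 48 h it became 0 in those 3, with cyclic loess and with the covariate. For combination against galactosamine at 3 h it became 1 in those 3. At 24 h it became 0 with only the compared groups and 2 with array weights or without rat63, rat70 and rat31. At 48 h it became 2 without those rats, and at 8 d 2 without them or with array weights. With the dim genes left out it was 0 for galactosamine at 24 h, nevirapine at 15 d, the combination at all 4 times and against nevirapine, and combination against galactosamine at 24 h and 8 d, and 1 at 3 h. Leaving out each rat gave 0 to 1 for galactosamine at 48 h, nevirapine at 15 d, the combination at 24 h and combination against galactosamine at 48 h and 8 d. It gave 1 to 2 for galactosamine at 24 h and combination against galactosamine at 3 h, 0 to 2 for the combination at 3 h and combination against galactosamine at 24 h, and 0 for the combination at 48 h. No paired analysis was possible because rat numbers are unique to a rat.

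Signal over background limits what can be said of Blnk, Pou2af1 and Cd79b.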
